A study of Mus musculus with 4 samples.

Results

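The deposited expression matrix was read here for Pax3 and 9 transcription factors of mesenchymal lineages, namely Twist1, Twist2, Prrx1, Prrx2, Snai1, Snai2, Tbx15, Foxs1 and Msx1. The rule for membership was the gene symbol alone, and 10 of the 23924 genes listed in the matrix met it. The 10 symbols were nevertheless chosen on earlier results of the same libraries, in which the TG and WT levels of these genes were already known, so their genotype differences are given as a description with no p-value. All 10 members had reads in all 4 libraries, and 9 of them passed the filter on low values and entered the fit across 11524 genes. The member left out was Msx1.

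The cells were tail tip fibroblasts (TTFs), grown from the tails of male mice of the C57BL/6J-TgBAC8-2087 line and immortalized with SV40 large T antigen. TG cells came from Tg2087/+ animals, which carry an autosomal transgene of X-inactivation centre sequence that includes the non-coding RNA gene Xist, and WT cells came from +/+ littermates. Both genotypes therefore share the strain, the litter, the viral immortalization and the tetraploid state of the cultures, and the age of the animals was not given in the sources used here. Polyadenylated RNA was sequenced in 2 WT and 2 TG libraries, and the study asked which autosomal genes differ when Xist is expressed from an autosome. Whether the pair of libraries in each genotype stems from different mice or cultures is not given in the sources used here, so the spread between them may be technical.

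The libraries held 9465712 to 14639946 counted reads, and the deepest was 1.55 times the shallowest. Xist, the check of the transgene, was at 0 FPKM in WT 1 (0 reads), 0.108 in WT 2 (28 reads), 2.31 in TG 1 (489 reads) and 2.28 in TG 2 (449 reads), so the genotypes did not overlap. Under the rule for calls used here Xist itself was not called (log2 fold change 2.34 ± 0.40, limma adjusted p = 0.0112), so a gene without a call is not shown to be alike in the genotypes. For any gene at 0, a library with 0 reads allows up to 3, by counting error only. Of 12 fibroblast markers most were abundant, with Col1a1 at 407 to 867 FPKM and Vim at 2147 to 2547 FPKM. Col1a2, Col3a1, Pdgfrb, Thy1, Fbn1 and S100a4 were also well above 0, from 26.8 to 1965 FPKM. The remaining markers of the list were at or near 0. Lum was 0 in all 4 libraries, and Dcn was 0 in both WT libraries and at most 0.878 FPKM in TG. Pdgfra lay between 0.0999 and 1.13 FPKM, and Fap was at most 0.0802 FPKM. In bulk RNA, fewer cells of a type and less RNA per cell cannot be told apart.

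The members belong to several families of DNA-binding proteins. PAX3 is a paired-box and homeodomain factor of the dermomyotome and the neural crest, where it acts upstream of the myogenic and melanocyte lineages. TWIST1 and TWIST2 are basic helix-loop-helix (bHLH) proteins that pair with the E proteins encoded by Tcf3, Tcf4 and Tcf12, and the ID proteins compete for those partners without binding DNA. PRRX1, PRRX2 and MSX1 are homeodomain factors of limb and craniofacial mesenchyme, TBX15 is a T-box factor of the limb skeleton and the dermis, and FOXS1 is a forkhead factor known from sensory neurons of neural crest origin and from pericytes. SNAI1 and SNAI2 are zinc finger repressors that bind E-box sequences and switch off epithelial genes such as Cdh1 in the epithelial to mesenchymal transition (EMT).

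Promoters are shown for 3 members because the Twist genes were the pair of members with the highest TG to WT ratios and Snai1 is a gene whose own product binds the motif marked in it. The sequences are RefSeq windows of the 250 bases before the transcription start on build GRCm38.p6, the assembly also called mm10, read 5′ to 3′ on the strand of the gene. A window was matched for 6 of the 10 members, and none was matched for Pax3, Snai2, Tbx15 and Foxs1. The Twist1 window is chr12:33957421-33957670 (plus strand), the Twist2 window is chr1:91801211-91801460 (plus strand) and the Snai1 window is chr2:167537945-167538194 (plus strand). Capitals mark CCAAT on either strand in the Twist windows and the E-box CACCTG in the Snai1 window.
Twist1: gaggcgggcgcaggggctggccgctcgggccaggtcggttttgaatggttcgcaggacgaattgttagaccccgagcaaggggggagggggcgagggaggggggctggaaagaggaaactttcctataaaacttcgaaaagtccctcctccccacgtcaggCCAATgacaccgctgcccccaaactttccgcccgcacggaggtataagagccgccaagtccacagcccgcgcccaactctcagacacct
Twist2: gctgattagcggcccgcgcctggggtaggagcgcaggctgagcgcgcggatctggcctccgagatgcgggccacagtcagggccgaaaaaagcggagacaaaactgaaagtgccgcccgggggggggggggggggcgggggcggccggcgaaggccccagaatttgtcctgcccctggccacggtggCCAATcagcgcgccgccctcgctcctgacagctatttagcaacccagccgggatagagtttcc
Snai1: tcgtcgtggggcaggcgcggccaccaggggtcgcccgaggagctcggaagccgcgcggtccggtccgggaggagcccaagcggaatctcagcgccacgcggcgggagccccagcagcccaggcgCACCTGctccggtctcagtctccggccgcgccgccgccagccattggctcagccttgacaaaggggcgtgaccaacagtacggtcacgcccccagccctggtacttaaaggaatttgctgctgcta

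The Twist1 and Twist2 windows were both rich in G and C, at 62.4% and 68.8% against a median of 52.4% over 32536 promoter windows of the same length. Each of them held 1 CCAAT, which begins 89 bases before the start of Twist1 and 63 bases before the start of Twist2, and 33.8% of all windows held one on either strand. CCAAT and TATAAA were added to the motifs after the sequences were read. TATAAA occurred in the Twist1 window, 126 bases before the start, and in 12.3% of all windows. Neither Twist window held an E-box of the general form CANNTG, which 66.2% of all windows held. The more specific CACCTG, itself a case of CANNTG and the form that SNAI and ZEB proteins are known for, occurred in the windows of Snai1 and Msx1 among the 6 members and in 17.3% of all windows. Its match in Snai1 begins 126 bases before the start. The homeodomain motif TAATTA was found in the Prrx1 window alone of the 6 (4.84% of all windows). The forkhead motif GTAAACA and the T-box motif AGGTGTGA occurred in none of the 6, and in 3.17% and 1.12% of all windows. Both strands were searched for every motif, and a match is a description of the letters, not a site.

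The related members could in principle share reads, so the longest identical stretch of their coding sequences was read from GENCODE M21 transcripts. The stretch was 23 bases in the Twist pair, at coding positions 403 to 425 of Twist1 and 265 to 287 of Twist2, 19 bases in the Prrx pair, and 22 bases in the Snai pair, where it begins at the start codon and so covers the first residues of the SNAG repressor domain.
Twist1 and Twist2: ctgcgcaagatcatccccacgct
Prrx1 and Prrx2: tcaacatggccaacagcat
Snai1 and Snai2: atgccgcgctccttcctggtca
None of the windows of 30 coding bases of Twist1 (592), Prrx1 (709) or Snai1 (766) occurred in the partner, so a read that covers 30 coding bases matches 1 gene of the pair exactly. The spans of other annotated genes overlap those of Twist2 (Gm29100 and Gm29101), Prrx1 (Gm20471, Gm26523 and Gm37644) and Tbx15 (Gm43120). Whether they share exonic bases with the member was not checked. None of these is in the matrix. Gm29101, Gm26523 and Gm37644 lie on the strand of the member, and Gm29100, Gm20471 and Gm43120 lie on the opposite strand. The strand setting of the counting was not given in the sources used here. Whether reads of any of these genes were counted for the member is therefore not known.

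Pax3 and Foxs1 stood at lower levels in both TG libraries, Twist1 and Twist2 at higher levels, and the remaining members at similar or less clearly separated levels. FPKM, the deposited unit, is the number of fragments scaled to gene length and library size, so it allows levels to be compared between genes. Differences are given as log2 fold changes of FPKM + 0.5 (TG over WT, ± standard error from limma), where 0.5 is a pseudocount that shrinks the change of low genes. A call required a Benjamini-Hochberg adjusted p under 0.01 and a change past 1 on the log2 scale in either direction, the thresholds of the study. Under this rule 2 of the 9 members tested were called, Pax3 and Foxs1, both lower in TG, beside 0.469% of all tested genes called lower and 0.607% called higher. Both TG libraries lay below both WT libraries for 4 of the 9 (Pax3, Foxs1, Snai2 and Prrx1), beside 20.3% of all tested genes, and above them for 3 of the 9 (Twist1, Twist2 and Prrx2), beside 30.2%. Nothing is read from these counts, since the same contrast was known when the members were chosen.

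**Figure D1:**
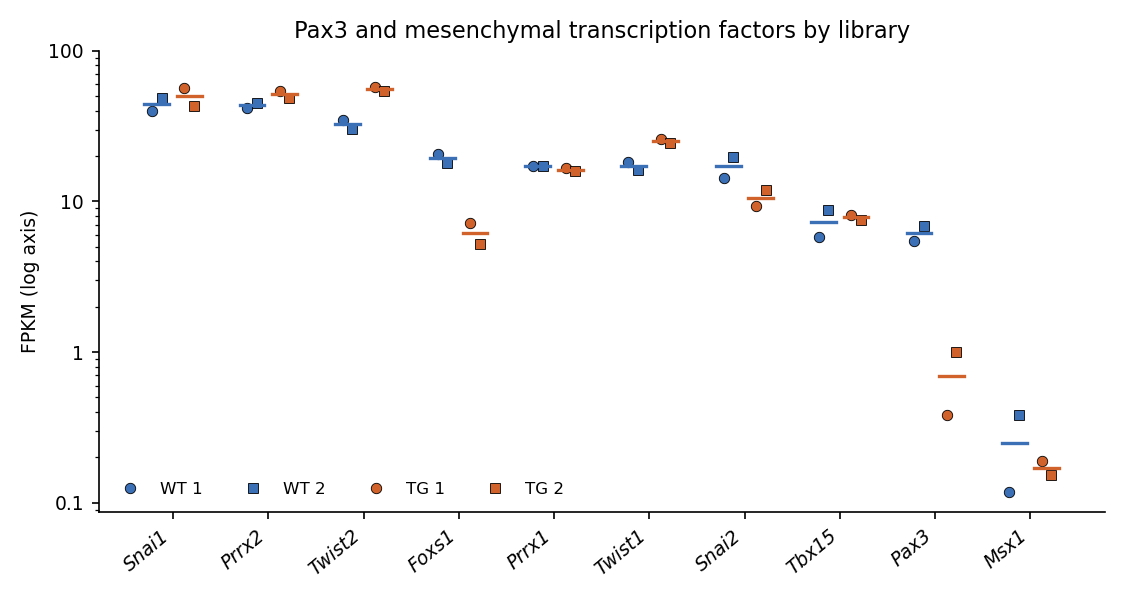
Level of the 10 members in each library. The y axis is FPKM on a log scale, points are single libraries (blue WT, orange TG, circles library 1, squares library 2), bars are genotype means, and genes are ordered by their WT mean. Pax3 and Foxs1 lie lower in both TG libraries, Twist1 and Twist2 lie higher, and the Snai1, Tbx15 and Msx1 points overlap between genotypes.

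Pax3 (gene ID 18505, chr1:78101267-78197136, minus strand) was measured at 5.43 FPKM in WT 1 and 6.83 in WT 2, and dropped to 0.383 in TG 1 and to 0.997 in TG 2. Behind these values stood 191 and 372 WT reads and 17 and 41 TG reads. Both TG libraries were far below both WT libraries, and the TG libraries also differed from each other by more than the WT libraries did. The exact Poisson interval (95%, counting error only) was 0.223 to 0.614 FPKM in TG 1 and 0.715 to 1.35 FPKM in TG 2, and these intervals did not overlap. The mean was 6.13 ± 0.995 FPKM for WT against 0.690 ± 0.434 FPKM for TG (SD, n = 2 each). On this linear scale Pax3 was lower by 88.7% ± 7.31 (SD carried from both genotypes), and the log2 fold change was −2.52 ± 0.34. The lowest WT and the highest TG library were 1.99 apart on the log2(FPKM + 0.5) scale, against 0.31 between the WT libraries and 0.76 between the TG libraries. Among the tested genes Pax3 moved from percentile 37.9 of WT means to percentile 3.51 of TG means. It was not at 0 in TG: 17 and 41 reads remained.

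Foxs1 (gene ID 14239, chr2:152931898-152933208, minus strand) had 20.7 FPKM in WT 1 and 17.9 in WT 2, then 7.15 for TG 1 and 5.21 for TG 2, from 228, 304, 99 and 67 reads. The genotypes did not overlap, and TG 2 was the lowest library. The mean fell from 19.3 ± 2.02 FPKM (WT) to 6.18 ± 1.37 FPKM (TG, SD, n = 2 each), which is 68.0% ± 7.84 lower, with a log2 fold change of −1.58 ± 0.22. In the ranking of all tested genes Foxs1 went from percentile 66.4 to percentile 36.7. Foxs1 is thus the other member whose difference was larger than 1 on the log2 scale. The TG to WT ratio of mean FPKM was 0.320 for Foxs1 and 0.113 for Pax3.

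The calls of both genes rest on few libraries. Neither was called without WT 1 or without WT 2, Pax3 alone was called without TG 2, and both were called without TG 1. Over the 14 settings tried, all log2 fold changes were negative, from −3.40 to −2.09 for Pax3 and from −1.79 to −1.37 for Foxs1.

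Twist2 (gene ID 13345, chr1:91801461-91848034, plus strand) stood at 34.7 FPKM in WT 1 and 30.5 in WT 2, against 57.8 in TG 1 and 54.3 in TG 2. Twist1 (gene ID 22160, chr12:33957671-33959831, plus strand) stood at 18.2 and 16.1 FPKM in WT cells and reached 25.9 and 24.4 FPKM in TG cells. For each gene both TG libraries were above both WT libraries, and in each genotype library 1 was slightly above library 2. The mean of Twist2 was 32.6 ± 2.96 FPKM in WT and 56.1 ± 2.43 in TG (SD, n = 2 each), and its log2 fold change was 0.78 ± 0.18. The mean of Twist1 was 17.1 ± 1.48 FPKM in WT and 25.1 ± 1.08 in TG, and its log2 fold change was 0.54 ± 0.19. Neither reached the size needed for a call in any of the 14 settings, in which Twist2 ranged from 0.69 to 0.87 and Twist1 from 0.45 to 0.63. The pair is on different chromosomes, and its summed level was 52.8 and 46.6 FPKM in WT cells against 83.7 and 78.7 FPKM in TG cells. The ratio of Twist2 to Twist1 was 1.91 and 1.89 for WT and 2.23 in each TG library, so Twist2 was the more abundant of the pair in every library.

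Prrx1 (gene ID 18933, chr1:163245119-163315145, minus strand) was at 17.1 and 17.2 FPKM in WT cells, beside 16.6 and 15.9 FPKM in TG cells. It had the most reads of any member, 1184 to 1835, and the TG libraries were lower by a gap of 0.05 on the log2 scale. The log2 fold change was −0.08 ± 0.19, smaller than its standard error. Prrx2 (gene ID 20204, chr2:30845064-30881251, plus strand) was at 41.8 and 44.9 FPKM in WT cells, beside 54.1 and 48.5 FPKM in TG cells. All TG values of Prrx2 were above the WT values by a gap of 0.11 on the log2 scale, and the log2 fold change was 0.24 ± 0.18. Prrx2 was therefore more abundant than Prrx1 in every library, by ratios of 2.44 and 2.61 in WT and 3.26 and 3.04 in TG. The reads of Prrx2 could be recovered from its FPKM only up to a common whole-number factor, so its counting error was not stated.

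Snai1 (gene ID 20613, chr2:167538195-167542814, plus strand) was at 39.8 FPKM in WT 1 and 48.4 in WT 2, beside 56.3 for TG 1 and 43.2 for TG 2. The genotypes overlapped, since TG 2 lay between the WT libraries, and the log2 fold change was 0.17 ± 0.20. Snai2 (gene ID 20583, chr16:14705852-14709395, plus strand) was at 14.4 FPKM in WT 1 and 19.8 in WT 2, beside 9.36 for TG 1 and 11.9 for TG 2. Both TG libraries were below both WT libraries, with a gap of 0.27 on the log2 scale that was narrower than the difference of 0.45 between the WT libraries. The log2 fold change of Snai2 was −0.65 ± 0.23, and it ranged from −0.88 without WT 1 to −0.43 without WT 2. The sum of both genes overlapped between the genotypes, at 54.2 and 68.1 FPKM in WT cells beside 65.7 and 55.1 FPKM in TG cells, while the ratio of Snai1 to Snai2 was 2.77 and 2.45 in WT and 6.02 and 3.64 in TG.

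**Figure D2:**
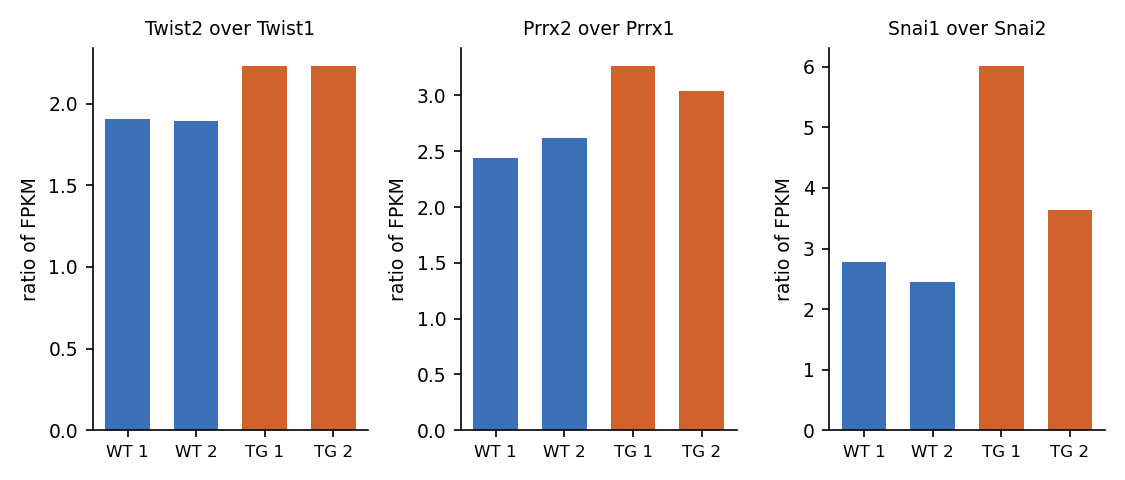
Ratio of FPKM within the Twist, Prrx and Snai pairs in each library. The y axes start at 0 and differ between panels, and each bar is 1 library (blue WT, orange TG). The ratio was higher in both TG libraries in all 3 pairs, and the Snai1 to Snai2 ratio varied most, with 6.02 in TG 1 and 3.64 in TG 2.

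Tbx15 (gene ID 21384, chr3:99240348-99354260, plus strand) was at 5.81 FPKM in WT 1 and 8.71 in WT 2, beside 8.17 for TG 1 and 7.56 for TG 2. The TG values lay between the WT values, and the log2 fold change was 0.13 ± 0.25, with a sign that turned to −0.14 when WT 1 was left out. Msx1 (gene ID 17701, chr5:37820491-37824585, minus strand) had 2, 10, 4 and 3 reads in WT 1, WT 2, TG 1 and TG 2, or 0.119, 0.383, 0.188 and 0.152 FPKM. At this depth no difference in Msx1 was detectable. Its relative Msx2, also a homeobox factor, lay between 2.68 and 4.76 FPKM in the 4 libraries.

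**Figure D3:**
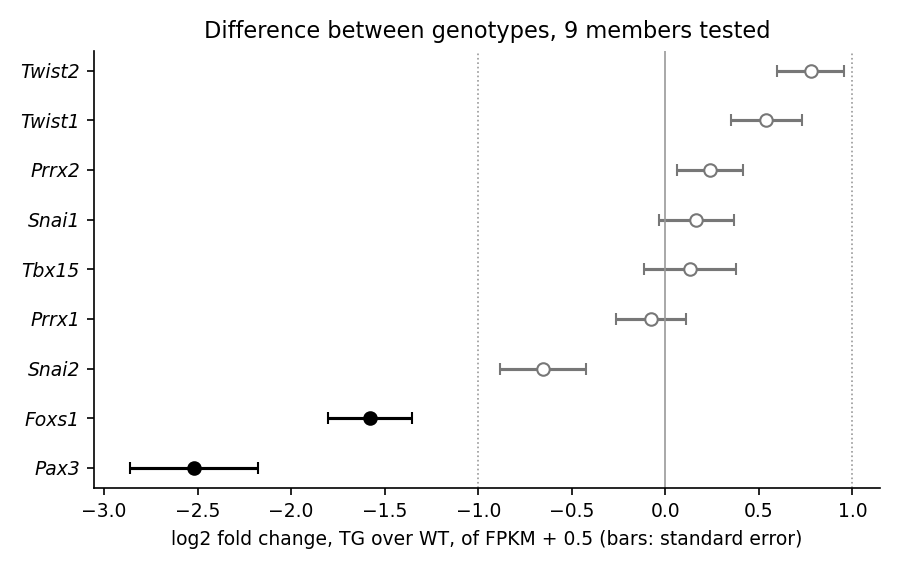
Genotype difference of the 9 members tested. The x axis is the log2 fold change of FPKM + 0.5, TG over WT, with bars of 1 standard error (n = 2 libraries each). Filled points are called genes and dotted lines mark a log2 fold change of 1 in size. Pax3 at −2.52 and Foxs1 at −1.58 lie beyond the left line, and no member lies beyond the right line.

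In WT cells Snai1 (44.1 FPKM) and Prrx2 (43.4) were the most abundant members, followed by Twist2 (32.6), Foxs1 (19.3), Prrx1, Twist1 and Snai2 (each 17.1 to 17.2), Tbx15 (7.26), Pax3 (6.13) and Msx1 (0.251). Libraries of neighbours in this order overlapped for Snai1 and Prrx2, Prrx1 and Twist1, Twist1 and Snai2, and Tbx15 and Pax3. In TG cells Twist2 (56.1 FPKM) was first, followed by Prrx2 (51.3), Snai1 (49.7), Twist1 (25.1), Prrx1 (16.3), Snai2 (10.6), Tbx15 (7.87), Foxs1 (6.18), Pax3 (0.690) and Msx1 (0.170). The only overlapping neighbours in TG were Prrx2 and Snai1. Foxs1 thus went from place 4 to place 8, while Twist2 went from place 3 to place 1. Pax3 was beside Tbx15 in WT, and in TG its mean was lower than that of Foxs1, the next member above it, by a factor of 8.96.

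Among the members, Pax3, Twist2 and Prrx1 lie on chromosome 1. By chromosome painting the study linked its transgene to that chromosome. It also reported clusters of down-regulated genes there, and placed its locus probes for fluorescence in situ hybridization in them. The differences of these members did not go one way, with log2 fold changes of −2.52, 0.78 and −0.08. Around Pax3, 4 other genes within 1 Mb were tested, and limma called 0 of them, as did limma-voom on recovered reads, with 0 at an unadjusted p under 0.05. Farsb, a subunit of phenylalanyl tRNA synthetase that lies 0.221 Mb away, had 25.1 FPKM in WT and 27.1 in TG (log2 fold change 0.11 ± 0.19, adjusted p = 0.804). Acsl3, a fatty acid CoA ligase, and Utp14b, which starts at the same position, lie 0.461 Mb away and had log2 fold changes of −0.20 and 0.25 (adjusted p = 0.626 and 0.702). Epha4, an ephrin receptor on the other side at 0.586 Mb, was at 0.888 FPKM in WT and 0.430 in TG (−0.57 ± 0.46, adjusted p = 0.546). The median log2 fold change of these 4 genes was −0.05, against 0.07 over all genes tested. Within 5 Mb of Pax3, 46 genes were tested and 2 were called: Tns1, the focal adhesion protein tensin, was lower (40.6 to 14.5 FPKM, log2 fold change −1.45, adjusted p = 0.00221) at 3.98 Mb, and the ligand gene Wnt10a was higher (0.0189 to 2.92 FPKM, 2.71, adjusted p = 0.00492) at 3.30 Mb. Wnt10a, near 0 in WT, was not called in voom or with a pseudocount of 0.1, among other settings. Its log2 fold change ranged from 1.94 to 6.05 over the 14 settings. The study places the tensin gene in a cluster of down-regulated genes on this chromosome, inside a segment that it probed. The 5 Mb window was drawn around Pax3, not around that cluster, and holds only part of it. Igfbp2 and Igfbp5, the genes of that cluster that the study found most affected, lie outside the window. Whether the lower level of Pax3 belongs to the same effect was not tested. All adjusted p-values are from limma with Benjamini-Hochberg adjustment over the 11524 genes.

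Foxs1 lies on chromosome 2 in a denser stretch, with 26 tested genes within 1 Mb. Of these, 19 had positive and 7 had negative log2 fold changes. The 2 that limma called were higher in TG, beside 0.607% of all tested genes called higher. They were Id1, 0.194 Mb away, and the small GTPase gene Rem1, 0.297 Mb away, which rose from 0.117 to 3.82 FPKM (log2 fold change 2.77 ± 0.43, limma adjusted p = 0.00665). Rem1 was called in 5 of 14 settings, not in voom, with a pseudocount of 0.1 or with upper-quartile scaling. Voom called Id1 and Trib3, a pseudokinase gene that was lower in TG (20.8 to 10.1 FPKM, limma adjusted p = 0.0267). Within 5 Mb of Foxs1, 102 genes were tested, and limma called 2 higher (Id1 and Rem1) and 2 lower. Of all tested genes 0.607% were called higher and 0.469% lower. The 2 lower were Trp53inp2 at 2.45 Mb (34.7 to 13.3 FPKM, limma adjusted p = 0.0082) and Myl9 at 3.84 Mb (1209 to 542 FPKM, limma adjusted p = 0.00751). The study counted chromosome 2 among those with more down-regulated genes, though less so once its gene number was considered. No tested gene within 1 Mb was called by limma or voom around Twist2 (15 genes, of which 2 had an unadjusted p under 0.05) or Prrx1 (13 genes, of which 0 did). The same held around Twist1, Snai2, Tbx15 and Msx1. Around Prrx2, limma called 0 of 39 genes, and 12 had an unadjusted p under 0.05. Voom called Pkn3 and Usp20 there, which were higher in TG, and Cercam, which was lower. The share of all tested genes with an unadjusted p under 0.05 is not given, so nothing is read from such counts, here or in the lists below. Around Snai1, 1 of 19 was called, the bZIP factor gene Cebpb, which was higher (8.49 to 22.5 FPKM, limma adjusted p = 0.00561). The genes of these windows other than those near Pax3 were looked up after the members' values were known.

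**Figure D4:**
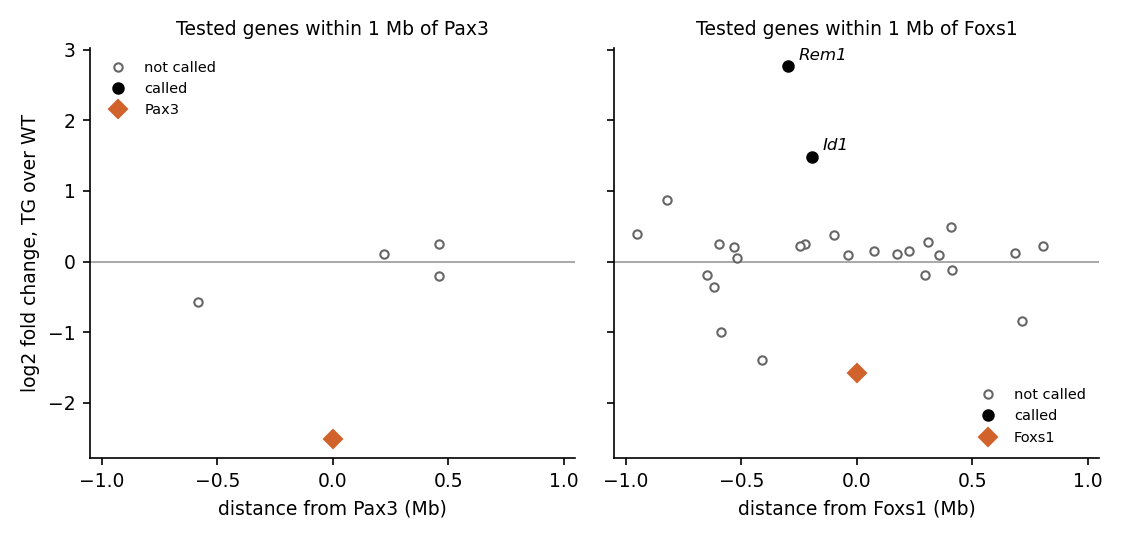
Tested genes within 1 Mb of Pax3 (left, 4 genes) and of Foxs1 (right, 26 genes). The x axis is the distance in Mb between gene bodies, the y axis is the log2 fold change of FPKM + 0.5, TG over WT, filled circles are called genes and the diamond is the member itself. Pax3 at −2.52 lies below all 4 of its neighbours, and the called neighbours of Foxs1, Id1 and Rem1, lie above 0.

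The wider families give the setting of these members. Of 112 listed genes in 7 lists of mesenchymal transcription factor families, members left out, 61 were tested, and limma called 3, which were higher in TG: Id1, Id2 and Sox9. Of all tested genes, 0.607% were called higher and 0.469% lower. Limma-voom on the recovered reads called these 3 and also Foxo1, Gli2 and Tbx18, which were lower in TG. Gli2, a mediator of hedgehog signalling, was at 3.41 and 5.08 FPKM in WT against 1.30 and 1.38 in TG (limma adjusted p = 0.0358). The median log2 fold change of the 61 was 0.02, beside 0.07 for all tested genes. In 18 of the 61 both TG libraries were below both WT libraries, beside 20.3% of all tested genes. In 22 of the 61 they were above, beside 30.2%. Among the other Pax genes, Pax2, Pax4, Pax7 and Pax8 were at 0 in all 4 libraries, and Pax5 and Pax6 were at most 0.0741 FPKM. Pax1, a factor of the sclerotome, was at 0 and 0.0274 FPKM in WT and 1.15 and 1.16 in TG, from at most 1 read in a WT library and 34 and 32 reads in the TG libraries, and was not called (limma adjusted p = 0.0665). Pax9 was at 0.884 and 1.65 FPKM in WT and 3.43 and 2.25 in TG, and was not called either (adjusted p = 0.182 in limma). Pax3 was therefore the most abundant Pax gene in each WT library and not in either TG library.

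Genes of the partners and antagonists of the Twist proteins come next. Of the E protein genes, Tcf3 had a log2 fold change of 0.11, Tcf4 of 0.51 and Tcf12 of −0.32, and limma called none of the 3 (adjusted p = 0.79, 0.174 and 0.463). Tcf4 was at 13.5 and 14.5 FPKM in WT against 21.3 and 19.1 in TG, so its libraries did not overlap. Id1 rose from 12.3 and 12.5 FPKM to 35.8 and 35.6 FPKM (log2 fold change 1.49 ± 0.18, limma adjusted p = 0.00174). Id2 rose from 1.32 and 3.71 FPKM to 22.03 and 19.8 FPKM (2.95 ± 0.34, limma adjusted p = 0.0013). For both genes the TG libraries were close to each other and far above the WT libraries. Id3 was at 53.2 and 33.8 FPKM in WT against 68.3 and 77.5 in TG and was not called (limma adjusted p = 0.0869). Scx, a bHLH factor of tendon, was at 59.9 and 49.9 FPKM in WT and at 52.5 and 58.2 in TG.

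Among the zinc finger factors of EMT, Zeb1 was at 5.60 and 6.90 FPKM in WT and 11.3 and 9.96 in TG, and Zeb2 was at 5.73 and 7.48 in WT and 5.41 and 3.72 in TG. Neither was called (limma adjusted p = 0.102 and 0.335). Snai3 was at most 0.285 FPKM. Of 36 homeobox genes 21 were tested, and limma and voom each called 0 while 4 had an unadjusted p under 0.05. Shox2, En1 and Meis1, among the more abundant of the 21, had log2 fold changes of 0.34, −0.37 and 0.03. Of 9 T-box genes 3 were tested and limma called 0, though 2 had an unadjusted p under 0.05 and voom called Tbx18. Tbx18, a factor of mural cells, had 11.2 and 14.2 FPKM in WT against 4.09 and 6.54 in TG (log2 fold change −1.21, limma adjusted p = 0.0289), and Tbx1 had 0.318 and 0.309 FPKM in WT against 1.47 and 2.15 in TG (1.49, adjusted p = 0.0636 in limma). Of 14 forkhead genes 9 were tested and limma called 0, though 3 had an unadjusted p under 0.05 and voom called Foxo1. Foxo1 had the largest negative value of these, with 19.0 and 24.3 FPKM in WT and 10.9 in each TG library (limma adjusted p = 0.0291). Sox9, a factor of cartilage and of the neural crest, rose from 1.90 and 2.44 FPKM to 7.11 and 9.05 FPKM (1.68 ± 0.26, limma adjusted p = 0.00671), and its call was lost whenever 1 library was left out.

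**Figure D5:**
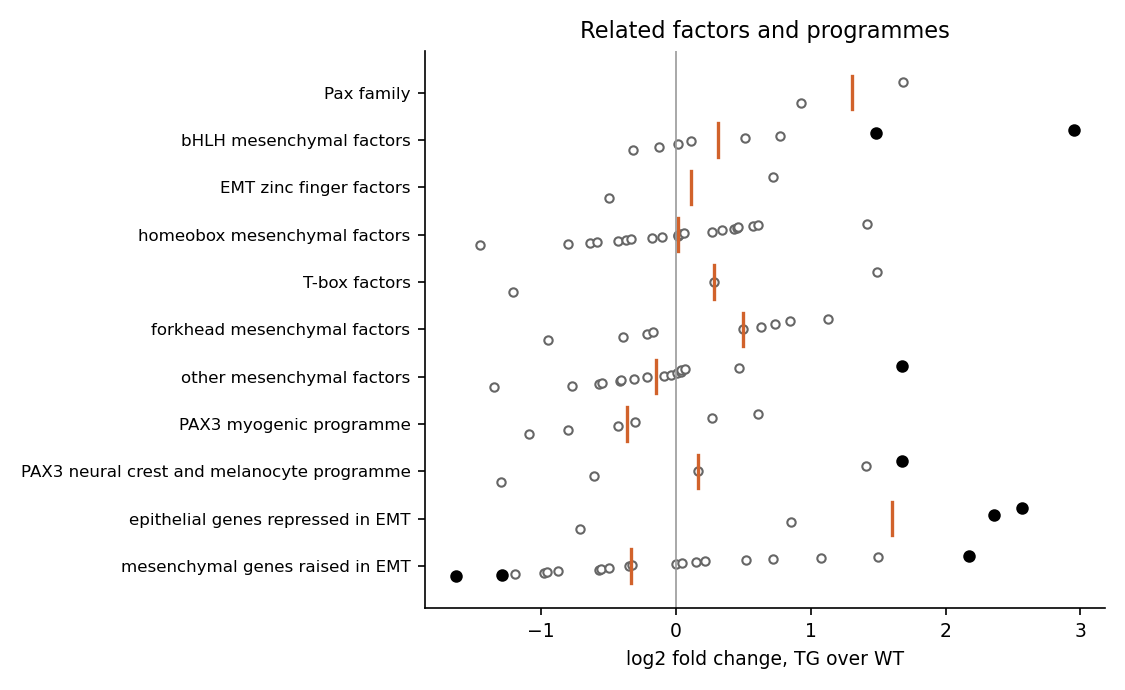
Genotype differences of the tested genes in lists of related factors and programmes. The x axis is the log2 fold change of FPKM + 0.5, TG over WT, each circle is 1 gene, filled circles are called genes, the orange bar is the median of the list, and Sox9 appears in 2 rows. The called genes are Id1, Id2, Sox9, Krt18, Krt19 and Spp1 on the right and Cdh11 and Postn on the left.

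Lineage genes that textbooks place with Pax3 were mostly silent in both genotypes. In the myogenic list, 6 of 18 genes were tested, limma and voom each called 0 (3 had an unadjusted p under 0.05) and the median log2 fold change was −0.36. Myod1, Myog and Myf5, the myogenic bHLH genes, were at 0 in all 4 libraries, while Pax3 was at 5.43 and 6.83 FPKM in the WT libraries. Met, the receptor of migrating muscle progenitors, was at 7.73 and 9.82 FPKM in WT and 11.4 and 9.92 in TG, and Itm2a was at 6.70 and 5.30 in WT and 2.09 and 3.05 in TG (−1.09, limma adjusted p = 0.0551). In the neural crest and melanocyte list 5 of 18 genes were tested, the median log2 fold change was 0.16, and 4 had an unadjusted p under 0.05. Sox10, Tyr, Tyrp1 and Mlana were at 0 in all libraries. Limma called Sox9 in that list, and limma-voom called both Sox9 and Tgfb2. Tgfb2, a growth factor gene, was at 5.33 FPKM in each WT library and at 2.18 and 1.61 in TG (−1.30, limma adjusted p = 0.027). Mitf, also on that list, was higher in TG, at 0.504 and 0.421 FPKM in WT and 1.87 and 2.25 in TG (limma adjusted p = 0.0592). Hes1 was lower, at 49.3 and 52.4 FPKM in WT and 34.0 and 32.4 in TG (limma adjusted p = 0.0844), and Nes overlapped between the genotypes.

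Some genes listed as markers of other cell types were lower in TG, and so were most fibroblast markers. Of 9 fibroblast markers tested, 7 had negative and 2 had positive log2 fold changes, with a median of −0.344. In 6 of the 9 both TG libraries were below both WT libraries, beside 20.3% of all tested genes. Limma called 0 of the 9, and voom called Pdgfrb, which was lower. The summed level of 8 skeletal muscle markers was 11.6 and 9.99 FPKM in WT and 5.45 and 5.37 in TG, nearly all of it Acta1, with Myod1, Myog, Myf5 and Pax7 at 0. Of 10 pericyte and smooth muscle markers, the cell types for which Foxs1 is known, 6 were tested. In all 6 both TG libraries were below both WT libraries, as in 20.3% of all tested genes. Their summed level was 8667 and 8928 FPKM in WT and 4067 and 4751 in TG, carried by the contractile genes Acta2, Tagln and Cnn1, and Cnn1 was called lower (log2 fold change −1.78, limma adjusted p = 0.00114). Acta2 is also in the list of mesenchymal genes described below. The smooth muscle marker Myh11 was low and overlapped, at 0 and 0.179 FPKM in WT and 0.0647 and 0.376 in TG. The pericyte markers Abcc9 and Kcnj8 were at 0 in all 4 libraries, and Rgs5 was at 1.83 and 1.24 FPKM in WT and 0.973 and 0.596 in TG. The part of this shift in the values of Foxs1 and Pax3 was not tested. The summed levels of melanocyte, Schwann cell, endothelial, keratinocyte and macrophage markers were at most 12.3 FPKM in any library.

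Genes of the transition that SNAI and TWIST proteins are known to drive did not move one way. Of 18 epithelial genes 4 were tested and 2 were called, both higher in TG, beside 0.607% of all tested genes called higher. These were the simple epithelial keratin genes Krt18, which rose from 1.10 and 2.24 to 11.5 and 12.2 FPKM (2.56 ± 0.29, limma adjusted p = 0.00123), and Krt19, which rose from 3.17 and 3.18 to 15.3 and 21.99 FPKM (2.36 ± 0.24, limma adjusted p = 0.000639). Cdh1, encoding E-cadherin and a known target of SNAI1, had 6 reads in WT 1 and 0 in the other libraries. Of 21 mesenchymal genes 20 were tested, with a median log2 fold change of −0.34. Both TG libraries were below both WT libraries in 11 of the 20, beside 20.3% of all tested genes, and above in 7, beside 30.2%. Limma called 2 lower and 1 higher, beside 0.469% and 0.607% of all tested genes. Voom also called Tnc, Pdgfrb and Acta2, which were lower in TG. Postn, encoding a matrix protein, fell from 82.4 and 90.5 to 28.2 and 27.0 FPKM (limma adjusted p = 0.000855), and the cadherin gene Cdh11 fell from 70.8 and 86.3 to 31.3 and 32.0 FPKM (limma adjusted p = 0.00435). Spp1, encoding osteopontin, rose from 92.1 and 95.6 to 465 and 387 FPKM (limma adjusted p = 0.000255). Without WT 1 or without WT 2, none of these 5 genes was called. The same held for the called genes Cnn1, Tns1, Wnt10a, Rem1, Cebpb, Id1 and Sox9, and for Id2 without WT 1, though each kept its direction in all 14 settings.

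The genes whose pattern over the 4 libraries was most like that of Pax3 were Csdc2, Tmem176b, Fam219aos, 2310010J17Rik and Mfap4. Likeness was the root mean square difference of log2(FPKM + 0.5) profiles after each was centred on its own mean, and it was 0.121, 0.228, 0.268, 0.302 and 0.308 in this order. Csdc2, an RNA-binding protein gene on chromosome 15, was at 17.9 and 21.8 FPKM in WT and 1.90 and 3.28 in TG, so that, as for Pax3, WT 2 was the highest and TG 1 the lowest library. Mfap4, a microfibril protein gene on chromosome 11, was at 11.5 and 13.7 FPKM in WT and 0.540 and 2.10 in TG. The 2310010J17Rik gene had 10 and 18 reads in WT and 0 in each TG library (each allows up to 3). The genes most like Foxs1 were Avpr1a, Endod1, Ctla2a, Camk2n1 and Eif4e3, at 0.028 to 0.082, of which Avpr1a, encoding a vasopressin receptor, was at 34.9 and 30.8 FPKM in WT and 12.9 and 9.43 in TG. None of these genes lies on the chromosome of the member it resembles. The ranking rests on 4 libraries, is a description and carries no test.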

How the data were processed

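RNA-seq of 2 WT and 2 TG libraries of immortalized tail tip fibroblasts was analysed. The authors aligned with Rsubread against mm10, made a table of gene counts and deposited the FPKM derived from it, 1 column per library; versions, annotation and strand setting are not given in the sources used here. Values of a gene are whole multiples of 1 read, so reads were recovered from the FPKM (99.75% to 99.89% of each library's total), and 149 bases less than the exonic length was the most common effective length. Genes averaging 0.5 FPKM or more were fitted on log2(FPKM + 0.5) with limma 3.58.1 (variance trend) in R 4.3.3, with Benjamini-Hochberg adjustment, and the fit was tested on simulated data. Exact permutation of 2 against 2 libraries cannot go below p = 0.333. Positions were matched for all but 94 of 23924 symbols. Members and gene lists were chosen with earlier results of these data known. Named genes were the members, of each list every called gene and up to 4 with the highest mean FPKM, tested genes within 1 Mb and called genes within 5 Mb of Pax3, the 5 genes most like Pax3 and Foxs1, and Xist. Other genes printed (Msx2, Gli2, Tcf4, Rem1, Trib3, Trp53inp2, Myl9, Cebpb, Pkn3, Usp20, Cercam, Cdh1, Tnc, Mitf, other Pax genes, the less abundant fibroblast markers, and marker or lineage genes at or near 0) were picked after their values were seen. Alternatives were other pseudocounts, filters, scalings, a replicate block, voom on the recovered reads, another threshold and leaving out each library. Replicate numbers were shared by the genotypes, but the deviations of WT 1 and TG 1 had a correlation of −0.028 over 11524 genes, so the numbers were not taken to pair the libraries. Intervals on reads are exact Poisson limits and cover counting error only. The value of 1 gene that this rule names is not reported here.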

Additional observations from a re-analysis of the deposited data

How the results depend on the processing

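The 2 calls among the members held under pseudocounts of 0.1 and 1, a mean FPKM of at least 1, both other scalings and limma-voom on the recovered reads. Called members were 0 with all genes above 0, with no variance trend and with a replicate block, and 0 to 2 when 1 library was left out. Mesenchymal factors called (3) became 0 with all genes, no trend or the block, 6 with voom or at an adjusted p under 0.05, and 0 to 2 leaving out 1 library. PAX3 programme genes called (1) became 0 with all genes, no trend, the block, upper-quartile scaling or quantile normalization, 2 with voom or at 0.05, and 0 leaving out any library. EMT genes called (5) became 0 with all genes or no trend, 1 with the block, 8 with voom, and 0 to 4 leaving out 1 library. Called Pax3 neighbours were 0 within 1 Mb and 2 within 5 Mb. Over all genes, 54 were called lower and 70 higher. All genes above 0 gave 1 lower and 0 higher, no trend 6 and 3, the replicate block 8 and 12, voom 150 and 124, and an adjusted p under 0.05 121 and 229. Upper-quartile scaling gave 53 lower and 47 higher, and quantile normalization 55 and 47. Leaving out 1 library gave 1 to 47 lower and 0 to 66 higher. Libraries with the same replicate number did not deviate together, so a call lost under the block is not described as a weaker effect. The pseudocount and voom moved Pax3 (−3.09 at 0.1, −2.09 at 1 and −3.40 in voom). The depth of Pax3 in TG, 17 and 41 reads, and of Msx1, 2 to 10 reads, limits both genes. The cause of these shifts was not tested.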
